A study of Mus musculus with 6 samples.

Results

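The genes described here encode the enzymes that make and remove inositol pyrophosphates. They are the diphosphoinositol polyphosphate phosphatases Nudt3, Nudt4, Nudt10 and Nudt11, the inositol hexakisphosphate kinases Ip6k1, Ip6k2 and Ip6k3, the bifunctional kinases Ppip5k1 and Ppip5k2, and the inositol polyphosphate multikinase Ipmk. All 10 genes were found by symbol among the 24062 symbols of the count table, and 8 of the 10 had enough reads to be tested. The family was chosen by a measured value of these data: Nudt4 was among the genes called higher in the knockout-labelled libraries (adjusted p = 0.0423 by the quasi-likelihood test of edgeR, with Benjamini-Hochberg adjustment over all genes tested). The other members were added by their names. The difference between the groups is therefore a description of the family and is no independent support for a change in it.

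The samples were brown adipose tissue, a heat-producing fat, from male C57BL/6 mice aged 12 weeks. The groups were 3 libraries labelled FAM195A heterozygous and 3 labelled FAM195A knockout, from 3 mice per genotype. The labels name no treatment, and neither the nature of the disrupted allele, the cells in which it is disrupted nor the housing temperature is given in the sources used here. Mice with 2 intact copies were not analysed here, so by the labels both groups carry a disrupted copy. The series presents FAM195A as a protein that binds RNA and is needed for heat production in the cold.

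Inositol pyrophosphates are small signalling molecules in which an inositol ring, already phosphorylated at every position, carries an added diphosphate group. Ipmk and further kinases build the phosphorylated ring, Ip6k enzymes add a diphosphate to inositol hexakisphosphate, and Ppip5k enzymes add one at another position. The Nudt phosphatases, members of the Nudix hydrolase family, cleave the diphosphates off again. These molecules are known for roles in phosphate balance, insulin signalling and energy metabolism, and mice without Ip6k1 are known to resist obesity on a high-fat diet.

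The 4 phosphatases share the Nudix box, a stretch of 23 codons that forms the metal-binding catalytic site. Its coding bases are shown because the bases in which these genes differ decide whether a read can be assigned to 1 of them. They were read from GENCODE M21 transcripts on GRCm38. Capitals mark the bases that differ from Nudt4, the gene with the most reads.
Nudt4: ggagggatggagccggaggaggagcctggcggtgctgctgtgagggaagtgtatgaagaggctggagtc
Nudt3: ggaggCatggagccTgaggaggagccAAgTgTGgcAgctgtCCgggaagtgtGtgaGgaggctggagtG
Nudt10: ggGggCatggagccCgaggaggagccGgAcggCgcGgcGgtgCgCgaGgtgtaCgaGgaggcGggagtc
Nudt11: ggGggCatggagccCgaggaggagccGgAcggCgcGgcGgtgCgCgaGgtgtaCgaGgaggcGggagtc

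Nudt3 differed from Nudt4 at 13 of the 69 bases, and Nudt10 and Nudt11 at 14, while the stretches of Nudt10 and Nudt11 were identical. The box lies in exons 2 and 3 of Nudt4 on the minus strand (chr10:95551485-95552545) and of Nudt3 on the minus strand (chr17:27583248-27596783). It lies within exon 1 of Nudt10 (chrX:6172620-6172688, minus strand) and of Nudt11 (chrX:6048058-6048126, plus strand). Over the whole coding sequence, Nudt4 and Nudt3 were 76.8% identical, and the full transcripts that carry these sequences shared no exact run longer than 21 bases. The coding sequences of Nudt10 and Nudt11, which lie 113.6 kb apart, were 99.8% identical. Their transcripts shared an exact run of 423 bases, so reads from that run cannot be assigned to 1 of the pair. The 3 Ip6k coding sequences were 62.3% to 68.1% identical, and the 2 Ppip5k sequences 69.4%. Transcripts within either of these families shared no exact run above 26 bases.

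Reads counted in genes ran from 18781401 to 20471963 in the heterozygous-labelled libraries and from 22418031 to 25084627 in the knockout-labelled ones. Genes held 43.9% to 48.4% of the column totals in the first group and 51% to 58.3% in the second. Levels are in CPM, reads scaled to a common TMM-adjusted library size, and the 3 values of a group are given in the order of replicates 1, 2 and 3. The targeted gene Fam195a (chr17:25863698-25868764, minus strand) stood at 69.0, 70.5 and 103 CPM with the heterozygous label and at 50.5, 82.0 and 81.3 CPM with the knockout label (log2 fold change -0.18, SE 0.241, adjusted p = 0.896). The groups overlapped for this transcript, so directions below are those of the library labels. The titles of heterozygous 3 and knockout 3 begin with RE and those of the other 4 with RF. On the second principal component (34.1% of the variance) the RE-titled pair stood apart, at -19.4 and -54.1 against 12.9 to 27.5. All 12 brown adipocyte markers had reads in every library. Of these, 1 was called, the fatty acid elongase Elovl3 (2.05-fold higher in the knockout-labelled group, adjusted p = 0.0418), and the lipid droplet gene Cidea had groups that did not overlap (1.34-fold higher, adjusted p = 0.421). Both lay in the direction of Nudt4, but 8 of the 12 markers had log2 fold changes below 0 (median -0.04). Groups that did not overlap were seen in 2 of the 12, against 18.0% of all genes tested. Over all genes tested, 0.0526% were called higher and 0.534% lower. The summed level of the 12 markers overlapped between the groups (21000 to 21900 against 20900 to 26100 CPM). The part of brown adipocyte content in the Nudt4 difference was not tested. The summed level of 26 skeletal muscle markers ran from 11200 to 33500 CPM in the heterozygous-labelled libraries and from 3790 to 7130 CPM in the knockout-labelled ones, and none of these markers was at 0 in any library. Summed markers of endothelial cells, macrophages, nerve and Schwann cells, fibroblasts and white adipocytes overlapped between the groups.

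Nudt4 was the member with the most reads and the 1 that passed the threshold. The gene, which removes diphosphates from inositol pyrophosphates, lies on chr10:95547007-95564146 (minus strand), with 1 annotated transcript. It stood at 289, 343 and 292 CPM with the heterozygous label and at 760, 564 and 706 CPM with the knockout label, or 308 ± 30.3 against 677 ± 101 CPM (SD, n = 3 each). All 3 knockout-labelled libraries were above all 3 others, and the lowest of them was 1.65 times the highest heterozygous-labelled one. These values gave a 2.20-fold higher level in the knockout-labelled group (log2 fold change 1.14, SE 0.166, 95% confidence bounds 0.75 and 1.52). This is the value that chose the family, and 0.0526% of the 13300 genes tested were called higher. By size of the log2 fold change Nudt4 was number 4 of those 7 genes.

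The size of the Nudt4 difference was alike within the title prefixes, and its call was not stable. With 0.5 CPM added, the log2 ratio was 1.27 in the RE-titled pair (1 library against 1, untested) and 1.06 within the RF-titled libraries (2 against 2). The call held without heterozygous 1 (log2 1.10, adjusted p = 0.0485). Without heterozygous 2 it was lost (log2 1.22, adjusted p = 0.169), and likewise without heterozygous 3 (log2 1.10, adjusted p = 0.146). Leaving out knockout 1 gave log2 1.05 (adjusted p = 0.141), leaving out knockout 2 gave 1.25 (adjusted p = 0.107) and leaving out knockout 3 gave 1.10 (adjusted p = 0.0574).

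Nudt3, the closest counterpart of Nudt4 with a measurable level and also described as an mRNA decapping enzyme, had a smaller difference, which did not pass. It stood at 95, 99.7 and 93.6 CPM with the heterozygous label and at 99.6, 112 and 107 CPM with the knockout label. The groups overlapped by a narrow margin, at heterozygous 2 and knockout 1. The log2 fold change was 0.15 (SE 0.113, adjusted p = 0.752). The 95% confidence bounds were -0.12 and 0.41, which is 92.2% and 133% of the heterozygous-labelled level. The annotation places a read-through gene over Nudt3 that shares 416 exon bases with it, and reads from these bases may have been set aside as ambiguous.

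Nudt10 and Nudt11, the X-linked pair of phosphatases, were near the limit of detection and were not tested. Nudt10 had 3 to 7 reads per heterozygous-labelled library and 4 to 11 per knockout-labelled one, and Nudt11 had 4 to 7 and 1 to 7. Summed over each group, Nudt10 came to 0.216 CPM (95% exact Poisson interval 0.115 to 0.369) and 0.345 CPM (0.221 to 0.513). Nudt11 came to 0.249 CPM (0.139 to 0.411) and 0.187 CPM (0.0994 to 0.319). The intervals, which cover counting error only, overlapped for both genes, and a difference was not detectable at this depth. Reads that did not align uniquely, 17.6% to 23.8% of the column totals, were counted for no gene. Reads from the shared run described above may be among them, so the levels of the pair may be too low.

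**Figure D1:**
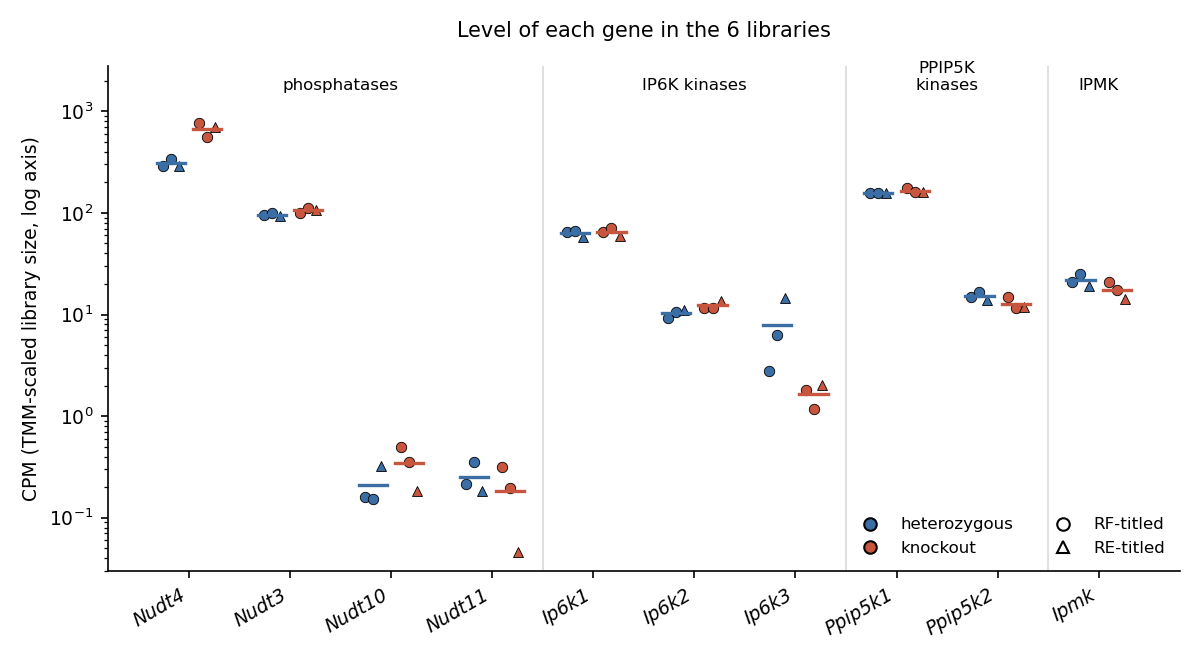
Level of each member in the 6 libraries, in CPM on a log axis. Each point is 1 library, short lines are group means, and the marker shape gives the title prefix. Nudt4 is separated between the groups (289 to 343 against 564 to 760 CPM), Ip6k3 is spread widely among the heterozygous-labelled libraries (2.77 to 14.6 CPM), and Nudt10 and Nudt11 lie below 0.5 CPM.

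Among the kinases of inositol hexakisphosphate, Ip6k1 and Ip6k2 had small differences between the groups and Ip6k3 a large, uneven one. Ip6k1, the member whose loss is known to protect mice from obesity, stood at 65.2, 66.6 and 57.8 CPM with the heterozygous label and at 64.4, 71.2 and 58.7 CPM with the knockout label. In both groups the RE-titled library was the lowest. The log2 fold change was 0.04 (SE 0.129, adjusted p = 0.965, bounds 83.2% and 126% of the heterozygous-labelled level). Its sign turned when libraries were scaled by library size only (log2 -0.01), without heterozygous 3 (-0.02) and without knockout 2 (-0.04). A predicted protein-coding gene on the same strand shares 942 exon bases with Ip6k1.

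Ip6k2, a kinase also known for a part in cell death, stood at 9.28, 10.6 and 11.2 CPM with the heterozygous label and at 11.7, 11.6 and 13.6 CPM with the knockout label. All 3 knockout-labelled libraries were above the others by a small step, from 11.2 to 11.6 CPM. The difference did not pass (log2 fold change 0.25, SE 0.161, adjusted p = 0.684, interval 91.4% to 154%).

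Ip6k3, the member known for its abundance in skeletal muscle, stood at 2.77, 6.30 and 14.6 CPM with the heterozygous label and at 1.79, 1.17 and 2.03 CPM with the knockout label. All 3 knockout-labelled libraries were below the others, but the heterozygous-labelled ones differed among themselves by 5.27-fold. The log2 fold change of -2.25 (SE 0.594, 95% interval -3.65 to -0.85) did not pass (adjusted p = 0.14). It passed without heterozygous 1 (-2.65, adjusted p = 0.0257) and by DESeq2 (-2.25, adjusted p = 0.00164), and it was -1.45 without heterozygous 3. With 0.5 CPM added, the log2 ratio was -2.58 in the RE-titled pair and -1.27 among the RF-titled libraries.

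Skeletal muscle transcripts moved with Ip6k3. The 26 muscle markers summed to 11200, 26900 and 33500 CPM with the heterozygous label, in the same order of libraries as Ip6k3. They summed to 7130, 4220 and 3790 CPM with the knockout label, where the orders differed: knockout 3 had the lowest muscle sum and the highest Ip6k3. All 26 markers had log2 fold changes below 0 (median -2.23) and 26 had an unadjusted p under 0.05, against 12.1% of all genes tested. By edgeR 0 of them passed the adjusted threshold, by DESeq2 21 did, and without heterozygous 1 edgeR called 21. The same fits called 78 of all 13300 genes, 750 of 14643 and 400 of 13567, in that order. In 25 of them the groups did not overlap, against 18.0% of all genes tested. The part of muscle transcripts in the Ip6k3 and Nudt4 differences was not tested, and in bulk tissue fewer cells of a type and less RNA per cell cannot be told apart. Among the heterozygous-labelled libraries the muscle sum varied 2.99-fold, Ip6k3 5.27-fold and Nudt4 1.19-fold. Among the knockout-labelled ones the muscle sum varied 1.88-fold, Ip6k3 1.73-fold and Nudt4 1.35-fold. Nothing about a cause is read from these ranges.

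**Figure D2:**
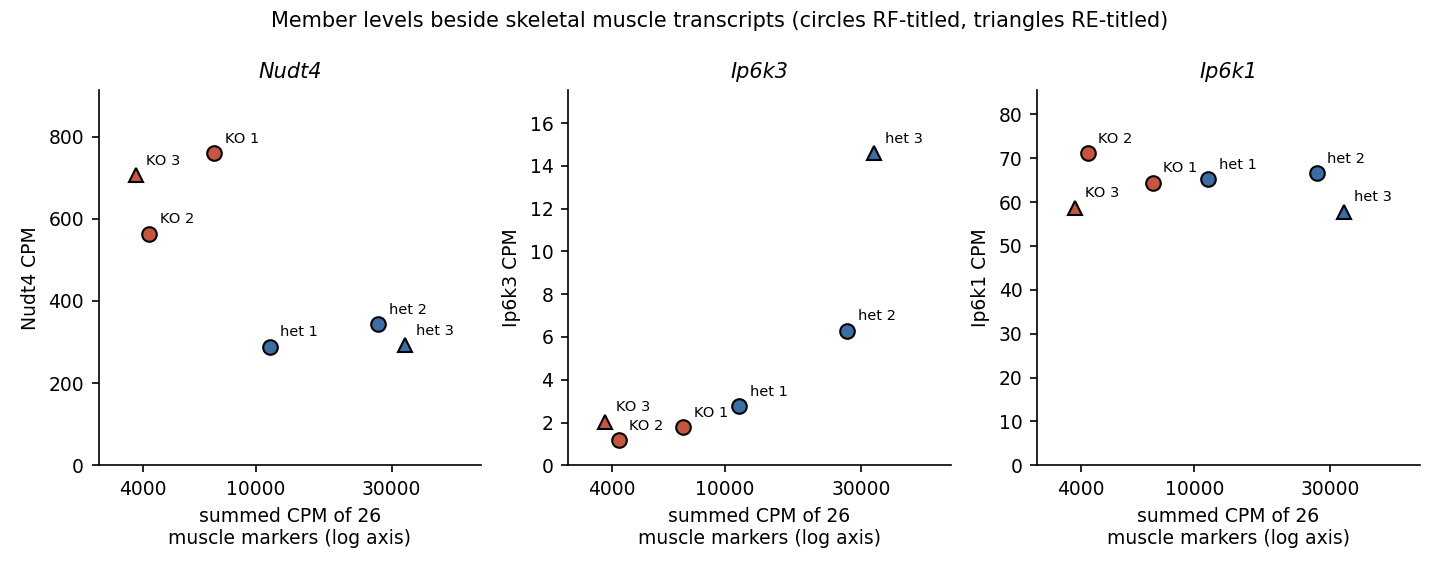
Levels of Nudt4, Ip6k3 and Ip6k1 (CPM, vertical axes from 0) against the summed CPM of 26 skeletal muscle markers (log axis), 1 point per library, with group by colour and title prefix by shape. Ip6k3 is highest in the heterozygous-labelled libraries with most muscle transcripts, Nudt4 lies between 289 and 343 CPM in the heterozygous-labelled group, and Ip6k1 lies between 57.8 and 71.2 CPM throughout.

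Ppip5k1 and Ppip5k2, which add the second kind of diphosphate and also carry a phosphatase domain, did not pass. Ppip5k1 stood at 158, 157 and 156 CPM with the heterozygous label and at 177, 160 and 159 CPM with the knockout label. The lowest knockout-labelled library lay just above the highest of the others, and knockout 1 alone stood out. The log2 fold change was 0.08 (SE 0.115, adjusted p = 0.91, interval 87.5% to 127%). Ppip5k2 stood at 15, 16.8 and 13.8 CPM and at 14.9, 11.5 and 11.8 CPM in the same order, with knockout 1 inside the heterozygous-labelled range (log2 fold change -0.25, SE 0.17, adjusted p = 0.693, interval 63.6% to 110%). Exons of Ppip5k1 overlap those of Map1a on the other strand over 272 bases, and exons of Ppip5k2 those of Gin1 over 84 bases. Reads from these stretches cannot be assigned unless the counting used strand.

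Ipmk, which supplies the more highly phosphorylated inositols upstream of the Ip6k step, stood at 21, 24.8 and 19.2 CPM with the heterozygous label and at 20.7, 17.5 and 14.2 CPM with the knockout label. The groups overlapped at knockout 1. The log2 fold change was -0.31 (SE 0.184, adjusted p = 0.631, interval 59.8% to 109%).

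Counted over the family, 1 of the 8 members tested was called higher and none lower (a second, Ip6k3, had an unadjusted p under 0.05). Over all 13300 genes 0.0526% were called higher and 0.534% lower. In 4 of the 8 members the groups did not overlap, Nudt4, Ip6k2 and Ppip5k1 with higher and Ip6k3 with lower knockout-labelled values, and 18.0% of all genes tested had groups that did not overlap. Because the family was picked from this same contrast, nothing is read from these counts. The median log2 fold change of the 8 members was 0.06, and that of all genes tested was 0.02. The members did not move in 1 direction.

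Levels of different genes were compared per length, in RPKM (CPM per kilobase of the union of annotated exons). Over all 6 libraries the order was Nudt4 (153 ± 66.3 RPKM, SD), Nudt3 (22.0 ± 1.55), Ppip5k1 (12.9 ± 0.621), Ip6k1 (9.87 ± 0.781), Ip6k2 (2.79 ± 0.348), Ipmk (2.76 ± 0.502), Ip6k3 (2.04 ± 2.2), Ppip5k2 (0.972 ± 0.142), Nudt10 (0.156 ± 0.0765) and Nudt11 (0.0717 ± 0.0356). Ip6k2 and Ipmk did not differ beyond their spread, and Ip6k3 ranged from 0.5 to 6.25 RPKM, across both neighbours. The order of the lower members changed with the group: Ip6k3 (3.37 ± 2.6), Ipmk (3.06 ± 0.397) and Ip6k2 (2.55 ± 0.242) with the heterozygous label, and Ip6k2 (3.02 ± 0.271), Ipmk (2.46 ± 0.457), Ppip5k2 (0.886 ± 0.131) and Ip6k3 (0.711 ± 0.19) with the knockout label (SD, n = 3 each). With the length of the longest transcript instead, Ip6k3 (2.04 RPKM) ranked behind Ppip5k2 (2.24 RPKM).

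Each family had a leading gene that was the same in all 6 libraries. Nudt4 made up 81.2%, 83.0% and 81.6% of the summed RPKM of the 4 phosphatases with the heterozygous label, and 91.5%, 87.7% and 90.4% with the knockout label. Nudt3 made up nearly all of the rest, at 16.8% to 18.6% in the first group and 8.36% to 12.1% in the second. These shares depend on the lengths used: with longest transcripts the mean share of Nudt4 was 68.8% and 81.2%. The shift of the Nudt4 and Nudt3 shares between the groups restates the Nudt4 difference that chose the family. Nudt3 itself was at 20.9 and 23.1 RPKM. Among the Ip6k genes, Ip6k1 led with 63.4% ± 12.5 and 72.7% ± 4.2. In heterozygous 3, where Ip6k3 reached 34.9%, the share of Ip6k1 was 49.7%. Ppip5k1 held 91.5% to 94.1% of the summed RPKM of the 2 Ppip5k genes over the 6 libraries.

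**Figure D3:**
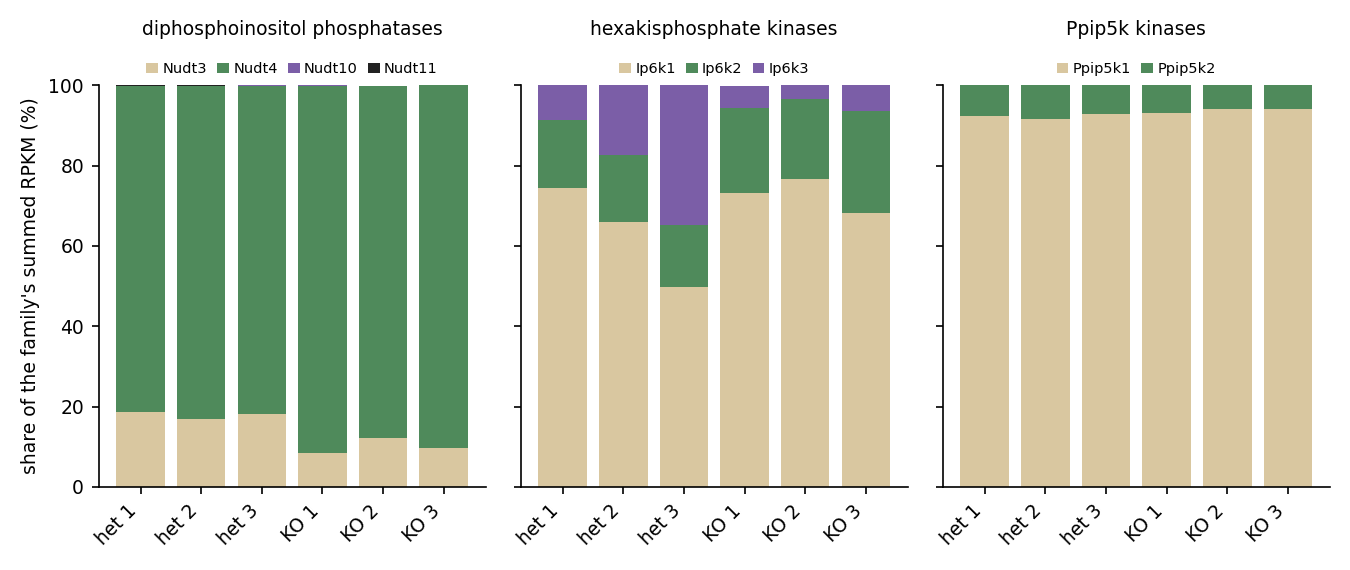
Share of each gene in the summed RPKM of its family (percent, stacked to 100), 1 bar per library, for the phosphatases, the Ip6k kinases and the Ppip5k kinases. Nudt4 takes 81.2% to 83.0% of the phosphatase sum in the heterozygous-labelled libraries and 87.7% to 91.5% in the others, and the share of Ip6k3 varies from 3.49% to 34.9%.

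Of 26 genes of inositol supply, inositol phosphate turnover and inositol trisphosphate signalling, 24 were tested and none passed in either direction by edgeR or DESeq2 (1 had an unadjusted p under 0.05 by edgeR, against 12.1% of all genes tested). Their log2 fold changes lay from -1.88 to 0.35 with a median of 0.01, and 13 of the 24 were above 0. The smallest p belonged to Inpp4b, a phosphatase of phosphoinositide lipids, at 1.12, 2.32 and 1.62 CPM with the heterozygous label and 0.941, 0.117 and 0.323 CPM with the knockout label (log2 -1.88, SE 0.661, adjusted p = 0.286). Plcb3, a phospholipase C that releases inositol trisphosphate, followed with 83.1, 91.4 and 86.0 CPM against 101, 119 and 98.5 CPM (log2 0.29, SE 0.126, adjusted p = 0.42). Inpp4a, a relative of Inpp4b, was at log2 -0.39 (adjusted p = 0.566), and Inpp1, which removes a phosphate from inositol bisphosphates, at 0.35 (adjusted p = 0.709). The enzyme that makes inositol hexakisphosphate, Ippk, was at 0.03 (SE 0.17), and Minpp1, a phosphatase that degrades it, at 0.18 (SE 0.141). Over all genes tested, 0.0526% were called higher and 0.534% lower by edgeR. The absence of a call among these 24 genes is near those shares and is not read as a result about the pathway.

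Of 7 genes of phosphate transport, 4 were tested, and none passed by edgeR or DESeq2 or had an unadjusted p under 0.05 by edgeR. By edgeR, 0.0526% of all genes tested were called higher, 0.534% were called lower and 12.1% had an unadjusted p under 0.05. Xpr1, the phosphate exporter whose SPX domain binds inositol pyrophosphates, stood at 43.8, 44.9 and 44.4 CPM with the heterozygous label and at 43.9, 30.3 and 44.1 CPM with the knockout label (log2 -0.17, SE 0.168, adjusted p = 0.828). Only knockout 2 stood apart. The importers Slc20a1 (log2 0.06) and Slc20a2 (-0.30) and the mitochondrial phosphate carrier Slc25a3 (-0.16) also had overlapping groups. Slc34a1, Slc34a2 and Slc34a3 had no read in any library.

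The other genes listed as Nudix hydrolases share the fold of the phosphatases, and several act on other nucleotide or sugar diphosphates or on messenger RNA caps. None of the 19 tested was called by edgeR, and over all genes tested 0.0526% were called higher and 0.534% lower. Their log2 fold changes lay from -0.93 to 0.66 with a median of 0.06, 4 had an unadjusted p under 0.05 (12.1% over all genes), and in 5 the groups did not overlap (18.0% over all genes). Nudt6 stood at 18, 18.9 and 21.9 CPM with the heterozygous label and at 9.36, 11.4 and 10.2 CPM with the knockout label (log2 -0.93, SE 0.157, adjusted p = 0.0586). It passed by DESeq2 (adjusted p = 0.000105), by limma-voom with quality weights (adjusted p = 0.0322) and with the title prefix as a covariate (adjusted p = 0.0215). Of its 1677 exon bases, Nudt6 shares 640 with Fgf2 and 316 with Spata5, both on the opposite strand. Its reads and those of Fgf2 and Spata5 cannot be told apart there without strand. Nudt13, a mitochondrial hydrolase of dinucleotides, stood at 81.5, 71.3 and 65.9 CPM against 52.0, 48.3 and 39.7 CPM (log2 -0.64, SE 0.15, adjusted p = 0.0924). Nudt18, which acts on oxidised guanine nucleotides, stood at 40.3, 45.1 and 41.3 CPM against 54.6, 67.4 and 73.8 CPM (log2 0.63, SE 0.146, adjusted p = 0.0919). Nudt5, a hydrolase of ADP sugars, was at log2 0.40 (adjusted p = 0.378), and its exons share 909 bases with those of Sec61a2. DESeq2 called Nudt13 (adjusted p = 0.0175) and Nudt18 (adjusted p = 0.0146) as well.

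**Figure D4:**
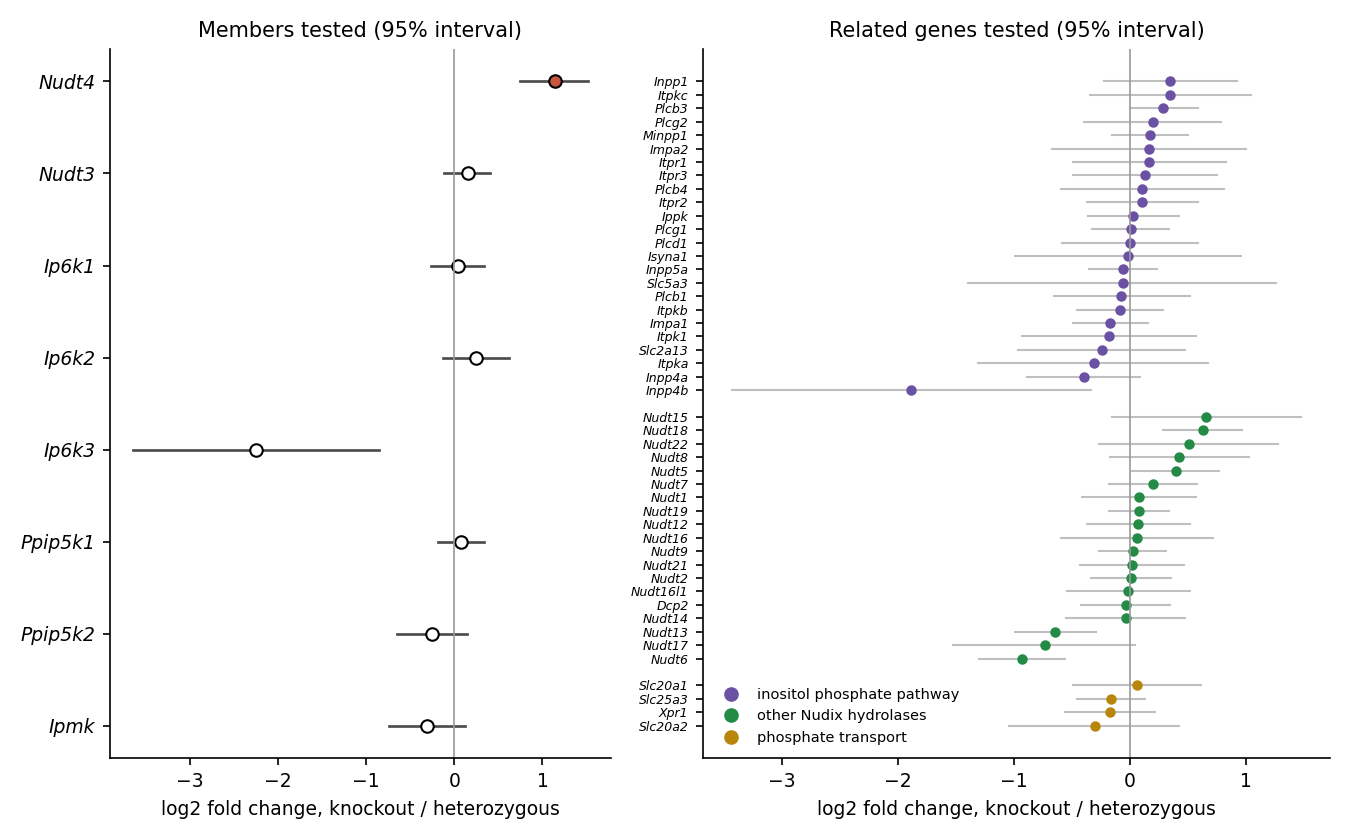
Log2 fold change of the knockout-labelled against the heterozygous-labelled libraries with its 95% interval, for the 8 members tested (left) and for the tested genes of 3 related lists (right). The filled point is Nudt4 (1.14), the member past the threshold. Ip6k3 has the widest interval of the members (-3.65 to -0.85), and no gene on the right passed.

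Across the 6 libraries the genes whose log2 CPM was most like that of Nudt4, among the 11525 genes whose average log2 CPM was 1 or more, were Dhx32 (Pearson r = 0.9974), Itm2c (0.9937), Cers2 (0.9911), Rbm28 (0.9904) and Efemp2 (0.9822), with 1 predicted gene between the last 2. With 3 libraries on each side and the same scaling, such values are a description and carry no test. Genes picked for this likeness are bound to share the pattern and direction of the gene they resemble, so they add no support. Dhx32, an RNA helicase gene of the DEAH type, stood at 37.4, 46.8 and 39.2 CPM with the heterozygous label and at 92.9, 67.6 and 85.0 CPM with the knockout label. Like Nudt4 it was highest in heterozygous 2 within its group and lowest in knockout 2 within the other (log2 fold change 0.99, SE 0.163, adjusted p = 0.0581). The other 4 had smaller differences, with log2 fold changes of 0.27 to 0.66, and none passed. For Ip6k3 the most alike were Pdp1 (0.9949), Tbx15 (0.9939), Phka1 (0.9937), Sms (0.9927) and Smco1 (0.9918), again with 1 predicted gene between the last 2. All 5 were highest in heterozygous 3, and their log2 fold changes ran from -2.20 to -0.88, none past the threshold.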

How the data were processed

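Brown adipose tissue was frozen, pulverised and extracted for total RNA, per the labels' protocols. The authors deposited raw read counts per gene symbol, laid out as HTSeq writes them. Alignment and counting tools named in the submitters' processing notes are STAR 2.7.2b, Bowtie2 2.3.4.3, HTSeq and SAMtools 1.9, beside Trim Galore, edgeR and the build mm10. Neither the annotation nor the strand setting is given in the sources used here. The 5 closing lines that name no gene, 41.7% to 56.1% of the column totals, did not enter library sizes or tests.

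Counts were fitted across all genes with edgeR 4.0.16 in R 4.3.3 (TMM, filterByExpr with a minimum count of 10 and total of 15, robust quasi-likelihood F test on genotype, Benjamini-Hochberg adjustment over 13300 genes, threshold 0.05). The biological coefficient of variation was 24.7%. Tried on simulated counts for these 13300 genes, the test found 32% of 100 genes with a log2 change of 1 and 85% of 100 with a log2 change of 2, with 9 false among 126 calls. The simulated counts were drawn for each gene on its own, with the fitted dispersions. They held no shared muscle difference and no split by title prefix, so these rates may not hold for the real counts. Groups came from the genotype label, and replicate numbers follow accession order and pair nothing. P-values measure the spread between these mice. Alternatives were RLE scaling, library size only, library sizes computed without muscle genes, other filters, each library left out, RF-titled libraries alone, the title prefix as a covariate, DESeq2 1.42.0, limma-voom (limma 3.58.1), no robust estimation and an adjusted p of 0.1.

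Members, related lists and markers were chosen with earlier results of these data known. Named genes were all members, the targeted gene, called genes or up to 4 with the smallest p in each related list, and the 5 genes most like Nudt4 and Ip6k3. Ippk, Minpp1, Elovl3, Cidea and the genes described by title prefix fall outside this rule and were named after their values were seen. Positions, lengths and sequences come from GENCODE M21 on GRCm38, the assembly that mm10 names, which may differ from the annotation used for counting. Of the 24062 symbols, 22750 matched directly and 916 through another symbol.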

Additional observations from a re-analysis of the deposited data

How the results depend on the processing

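The log2 fold change of Nudt4 was between 1.05 and 1.25 with each library left out, where the call held in 1 of 6 fits, and 1.07 in the RF-titled libraries alone, where it was lost (adjusted p = 0.0766). It stayed past the threshold under every other alternative run (1.08 to 1.15). The count of members called was 0 to 2 with a library left out, 0 in the RF-titled libraries and 2 by DESeq2, which added Ip6k3. The count of other Nudix hydrolases called, 0 in edgeR, was 2 (Nudt6 and Nudt13) when the title prefix was a covariate, 3 by DESeq2, 1 by limma-voom and 3 at an adjusted p of 0.1. No inositol phosphate pathway or phosphate transport gene passed under any alternative. Over all genes, 78 calls by edgeR became 0 when heterozygous 2, knockout 1 or knockout 2 was left out (1257, 1450 and 1393 genes at an unadjusted p under 0.05), 8 when heterozygous 3 was, 111 when knockout 3 was and 400 when heterozygous 1 was. They became 132 in the RF-titled libraries, 311 with the prefix, 750 by DESeq2, 194 by limma-voom and 500 at an adjusted p of 0.1. The cause was not tested. Ip6k1 lay close to 0, from -0.04 to 0.09 over all alternatives, and the direction of the other members tested was kept. Nudt10 and Nudt11 were too sparse for any statement.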

Other observations

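Some genes of inositol handling were split by title prefix, as were many of all genes tested. This was looked for after the values were seen and carries no test. Of the 24 inositol phosphate pathway genes tested, 5 (20.8%) had both RE-titled libraries below all 4 RF-titled ones and 9 (37.5%) had both above. Over all 13300 genes these shares were 17.8% and 16.3%. Neither share is read as a trait of this list. The share of lower genes was near that of all genes, and that of higher genes was picked out after the values were seen. Among the lower ones, Slc5a3, the sodium-coupled importer of myo-inositol, stood at 13.2 and 17.0 CPM in the RE-titled libraries (heterozygous 3 and knockout 3) and at 35.2 to 54.5 CPM in the 4 RF-titled ones. Impa2, an inositol monophosphatase, stood at 32.0 and 31.2 CPM against 53.9 to 72.1 CPM. Itpk1, a kinase of inositol polyphosphates, stood at 111 and 74.1 CPM against 143 to 186 CPM. Among the higher ones were the inositol trisphosphate receptors Itpr1 (181 and 244 CPM against 125 to 136 CPM) and Itpr2 (208 and 264 CPM against 164 to 186 CPM). Of the 8 members tested, Ip6k1 alone (12.5%) was split in this way, with lower RE-titled values, against 17.8% of all genes. What the prefix stands for is not given in the labels.

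Of the 10 members, 2 lie on the chromosome of the targeted gene. Ip6k3 begins 1.28 Mb and Nudt3 begins 1.71 Mb beyond the end of Fam195a on chromosome 17 (GRCm38). Nudt4 lies on chromosome 10.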
